A study of Homo sapiens with 6 samples.

Results

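JQ1 was set against DMSO in RPMI8226, a human multiple myeloma cell line, by ATAC-seq, an assay in which a transposase cuts and tags open chromatin. The RPMI8226 libraries are 2 of the 6 in the series, 1 from cells given 1 µM JQ1 for 72 h and 1 from cells given DMSO, the solvent, at the same volume. KMS-11 and KMS-12, 2 other myeloma lines treated likewise with 1 library a side, are used here as points of comparison. All 3 lines are labelled WT for genotype and were grown in the same serum-supplemented medium. The readout is the fold of each region in the authors' deposited table, which lists 3838 regions, and all 3838 carry a value for RPMI8226. The table's header states neither a log base nor which treatment is on top. Base 2, with JQ1 as numerator and DMSO as denominator, is assumed here, so that a negative fold is lower accessibility under JQ1. The table is a selected one. In all 3838 regions the deposited number of lines in common, 2 or 3, equals the number of lines at or below -0.5, and no line has a fold above 0 anywhere, so the negative sign of the folds is a property of the table and not a result. With 1 library a side and no read counts in the table, no fold has an error, a test or a known depth, and each value describes these libraries alone. A gene name given for a region is the gene that contains it, or the nearest one where none does. The annotation used has no exons, so a region called inside a gene was not placed in an exon, intron or UTR.

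JQ1 occupies the acetyl-lysine pocket of the BET proteins, which read acetylated histones and help to keep enhancers and promoters active. Myeloma cells are malignant plasma cells, and their survival rests on a few transcription factors, MYC and IRF4 among them, whose genes are known for their dependence on BET proteins. RPMI8226 is known for a translocation that activates MAF, a transcription factor that drives genes such as CCND2 and ITGB7. The MAF status of KMS-11 and KMS-12 was not looked up, so no difference between lines is read here as one of MAF. Open regions away from gene starts often act as enhancers, and those at gene starts are promoters.

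Promoter windows of RefSeq (GRCh38.p14, from 250 bases before to 50 after an annotated start) overlapped 106 of the 3668 regions for which windows were available, and the 4 windows under the lowest RPMI8226 folds are shown because they are the annotated start sites with the lowest folds in this line. All 4 lie on chromosome 1, and 3 of them belong to or adjoin surface receptor genes of the B lineage and of antigen presentation. LOC124904440 is a noncoding RNA gene on the minus strand whose window (chr1:160739110-160739409) shares 294 bases with a region inside SLAMF7 (chr1:160739116-160739463). SLAMF7 encodes a plasma cell surface receptor that is an antibody target in myeloma, and its region had a fold of -1.72 in RPMI8226, against -0.75 in KMS-11 and -0.44 in KMS-12, in the authors' deposited table. RABGAP1L, a regulator of Rab GTPases, has a plus-strand window (chr1:174964528-174964827) sharing 263 bases with a region at -1.68 in the authors' deposited table. FCRL4, an Fc receptor-like molecule of memory B cells, has a minus-strand window (chr1:157598036-157598335) that lies wholly, 300 bases, within a region at -1.65. CD1D presents lipid antigens to natural killer T cells, and its plus-strand window (chr1:158179697-158179996) shares 216 bases with a region also at -1.65. The sequences run 5′ to 3′ on the gene's strand, and capitals mark GGAA, the core letters bound by ETS factors, or its reverse complement TTCC.
LOC124904440: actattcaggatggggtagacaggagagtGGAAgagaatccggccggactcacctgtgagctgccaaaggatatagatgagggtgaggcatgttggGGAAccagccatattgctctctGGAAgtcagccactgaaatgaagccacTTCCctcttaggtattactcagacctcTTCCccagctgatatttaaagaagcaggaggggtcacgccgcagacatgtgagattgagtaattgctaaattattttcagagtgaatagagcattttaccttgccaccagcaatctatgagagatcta
RABGAP1L: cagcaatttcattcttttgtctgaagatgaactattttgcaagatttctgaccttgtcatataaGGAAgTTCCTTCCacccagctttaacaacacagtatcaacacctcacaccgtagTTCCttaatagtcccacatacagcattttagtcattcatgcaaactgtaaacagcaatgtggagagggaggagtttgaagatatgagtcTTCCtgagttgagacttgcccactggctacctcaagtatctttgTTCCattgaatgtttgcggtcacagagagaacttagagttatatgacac
FCRL4: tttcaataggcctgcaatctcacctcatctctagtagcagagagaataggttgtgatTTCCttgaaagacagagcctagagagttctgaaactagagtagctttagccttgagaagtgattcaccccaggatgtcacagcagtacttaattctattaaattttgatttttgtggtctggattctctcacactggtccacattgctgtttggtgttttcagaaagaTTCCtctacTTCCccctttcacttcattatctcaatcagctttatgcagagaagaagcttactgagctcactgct
CD1D: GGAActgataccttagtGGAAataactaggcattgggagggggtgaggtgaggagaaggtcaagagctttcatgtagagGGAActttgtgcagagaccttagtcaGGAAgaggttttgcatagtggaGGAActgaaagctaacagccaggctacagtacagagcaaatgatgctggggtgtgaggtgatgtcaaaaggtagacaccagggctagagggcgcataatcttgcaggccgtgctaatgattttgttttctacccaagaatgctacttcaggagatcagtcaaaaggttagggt

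GGAA on either strand was found 5 times in the LOC124904440 window, 6 times in that of RABGAP1L, 3 times in that of FCRL4 and 5 times in that of CD1D. A 4-letter core is common, and 95.5% of all 35116 RefSeq windows hold it, as do 94.6% of the 130 windows that overlap a region. The other letters searched on both strands were CACGTG (an E-box bound by MYC), TGACTCA (the AP-1 site), ATTTGCAT (the octamer bound by POU2F1), TGCTGA (the core of a MAF site) and GGGCGG (the GC box), and none was in the 4 windows shown. TGCTGA can share its last 3 letters with TGACTCA, and the other motifs were counted without regard to overlap. TGCTGA was in 23.1% of the 130 overlapping windows against 17.3% of all windows, and CACGTG in 3.85% against 7.26%. TGACTCA was in 6.15% against 4.95%, ATTTGCAT in 3.08% against 1.77%, and GGGCGG in 44.6% against 45% of all windows. The median GC content of the overlapping windows was 56%, against 58.7% for all windows.

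Across the 3838 regions of the authors' deposited table the median RPMI8226 fold was -0.61 (quartiles -0.86 and -0.37), a JQ1 to DMSO ratio of 0.653. The middle 90% of regions lay between -1.32 and -0.08. The lowest fold was -2.54, a ratio of 0.172, and the one nearest to 0 was -0.00018. In a bulk library, less opening in every cell and loss of opening in a share of the cells cannot be told apart.

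Of the 3838 folds, 2603 (67.8%) were at or below -0.5, the value behind the number of lines in common. A further step down, 630 (16.4%) were at or below -1, 98 at or below -1.5 and 5 at or below -2. At the other end, 256 regions (6.67%) had a fold above -0.1. The share at or below -1 was 22.7% in KMS-11 and 29.9% in KMS-12, so RPMI8226 had the fewest such regions. Its values were also the most finely graded of the 3 lines. In RPMI8226, 35.5% of regions had a fold that no other region shared, against 20.3% in KMS-11 and 18.6% in KMS-12. A fold repeated in 10 or more regions was carried by 7.58% of regions in RPMI8226, by 41.3% in KMS-11 and by 52.3% in KMS-12. The part of this repetition in the difference between lines was not tested.

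**Figure D1:**
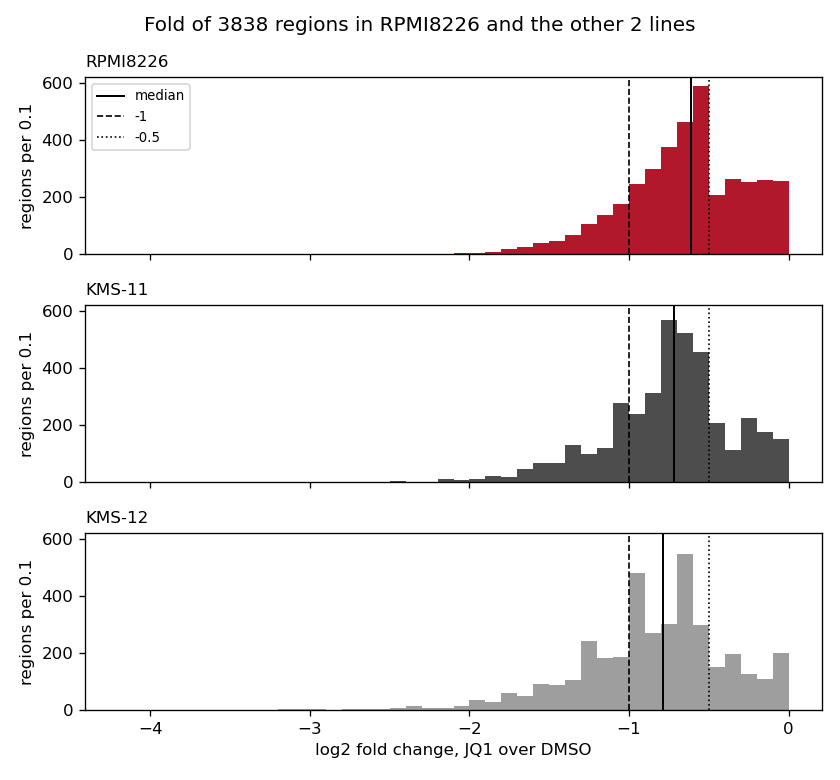
Histograms of the log2 fold change of the 3838 regions, in RPMI8226 (top), KMS-11 and KMS-12, with regions per 0.1 on the y axis, a solid line at each median, and dashed and dotted lines at -1 and -0.5. The RPMI8226 median of -0.61 is nearest to 0, and all 3 lines have fewer regions just above -0.5 than just below it, where the table's selection acts.

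The strongest single region in RPMI8226 lay inside HPS3, a subunit of a complex that builds lysosome-related organelles (chr3:149145969-149146315). Its fold in the authors' deposited table was -2.54 in RPMI8226, against -0.98 in KMS-11 and -0.31 in KMS-12. The second was inside KCND2, a voltage-gated potassium channel gene (chr7:120421201-120421586), at -2.42 in RPMI8226, -1.43 in KMS-11 and -0.89 in KMS-12. The third was inside RORA, a nuclear receptor of the circadian clock and of lymphoid cells (chr15:60635844-60636107). It stood at -2.28 in RPMI8226, against -1.10 in KMS-11 and -0.06 in KMS-12. HPS3 and RORA were therefore low in RPMI8226 and KMS-11 and above -0.5 in KMS-12, while KCND2 was low in all 3 lines.

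EPM2AIP1, a partner of the glycogen phosphatase laforin, was the gene nearest to the next region (chr3:36969943-36970238, 14.8 kb away), at -2.06 in RPMI8226 in the authors' deposited table, -0.43 in KMS-11 and -0.74 in KMS-12. A region inside NLGN1, a synaptic adhesion protein (chr3:173737213-173737666), had -2.02 in RPMI8226, -1.45 in KMS-11 and -1.07 in KMS-12. CMTM7, a membrane protein with a role in B cell receptor signalling, contained a region (chr3:32439058-32439307) at -1.995 in RPMI8226, -0.45 in KMS-11 and -1.53 in KMS-12. These 3 regions, like that of HPS3, are on chromosome 3, which held 5 of the 20 lowest regions, and chromosome 1 held 4. Of all 3838 regions, 337 were on chromosome 3 and 406 on chromosome 1.

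Further regions of the lowest 20 in the authors' deposited table lay inside ESRRG, ASCC3, WWP1 and VPS35. ESRRG, an orphan nuclear receptor (chr1:216528867-216529237), had -1.90 in RPMI8226, -0.93 in KMS-11 and -0.68 in KMS-12. ASCC3, a helicase of DNA alkylation repair and ribosome quality control (chr6:100796516-100796789), had -1.86 in RPMI8226, against -1.44 in KMS-11 and -1.32 in KMS-12. WWP1, a HECT ubiquitin ligase (chr8:86429081-86429296), also had -1.86 in RPMI8226 but -0.79 in KMS-11 and -0.06 in KMS-12. VPS35, a core subunit of the retromer that returns cargo from endosomes (chr16:46658917-46659302), had -1.84 in RPMI8226, -0.62 in KMS-11 and -1.32 in KMS-12. ASCC3 and VPS35 were thus below -0.5 in each line, whereas the KMS-12 fold at WWP1 was close to 0.

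The remaining regions of the 20 were spread over genes of unlike function. A region 6.63 kb from PARP8, an ADP-ribosyltransferase (chr5:50853153-50853512), had -1.96 in RPMI8226 and nearly the same in KMS-12, -1.92, with -0.79 in KMS-11. That KMS-12 value was carried by 18 regions and that KMS-11 value by 46. Regions inside SGSM1, a modulator of small G proteins (-1.84), NVL, an ATPase of ribosome assembly (-1.81), RCSD1, a regulator of actin capping (-1.80), and THSD7B (-1.77) followed with the RPMI8226 folds given here. The noncoding or uncharacterised genes of the 20 were LOC105371456 (-1.91), LOC400499 (-1.88), LOC105369673 (-1.82), LOC107986623 (-1.81) and LOC102724289 (-1.77). RCSD1 is the only gene of the 20 besides EPM2AIP1 and CMTM7 whose KMS-11 fold was above -0.5.

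As a group, the 20 lowest regions, from -2.54 to -1.77, had RPMI8226 as the lowest of the 3 lines in all 20 cases, which their choice by the RPMI8226 value favours. Their median fold was -0.93 in KMS-11 and -0.90 in KMS-12. Of the 20, 17 lay inside a gene, 16 were assigned to a protein-coding gene and 10 were shared by all 3 lines. Over all regions the shares were 58.9% inside a gene, 65% protein-coding and 24.8% shared by all 3 lines. They were narrow, 208 to 454 bases with a median of 292, against a median of 393 over the 3838 regions. None of those with start sites available was within 1 kb of one. Of all regions, 2.27% overlapped a start and 2.19% lay up to 1 kb from one without overlapping it.

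**Figure D2:**
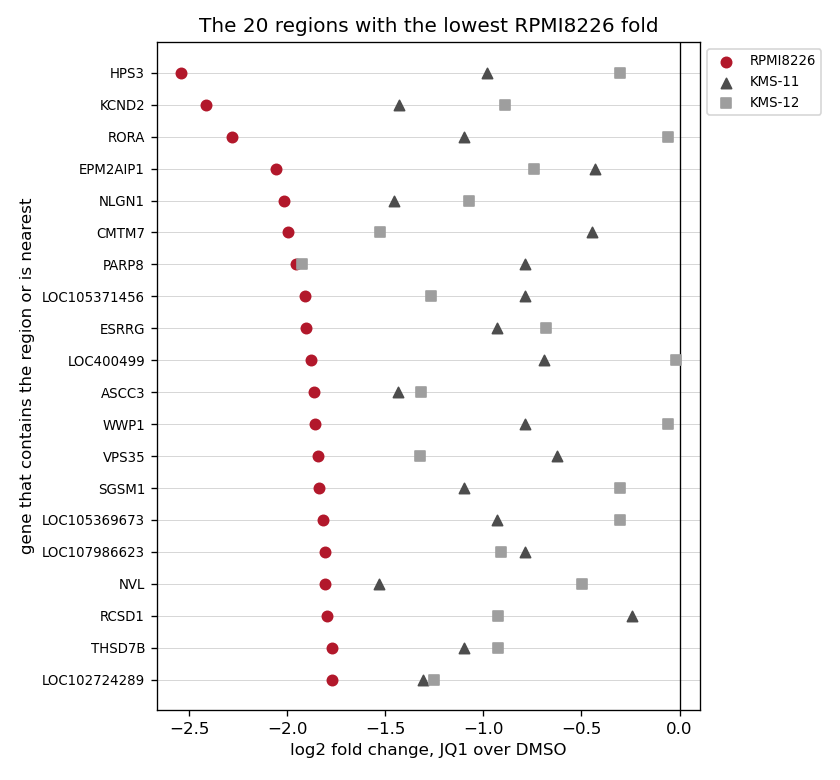
The 20 regions with the lowest RPMI8226 log2 fold change, 1 per row and named by gene, with the fold in RPMI8226 (circles), KMS-11 (triangles) and KMS-12 (squares) on the x axis. The RPMI8226 circle is leftmost in every row, and the gap to the other lines is widest at HPS3 and RORA, while at PARP8 the KMS-12 square almost touches it.

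The 630 regions at or below -1 in RPMI8226 had a median of -0.75 in KMS-11 and -0.68 in KMS-12, close to or above the medians of all regions in those lines, -0.71 and -0.79. Among the 630, 168 (26.7%) were also at or below -1 in KMS-11, where 22.7% of all regions were. For KMS-12 the number was 155 (24.6%), where 29.9% of all regions were, and 39 were at or below -1 in all 3 lines. RPMI8226 was the lowest of the 3 lines in 464 of the 630 (73.7%), against 895 of all regions (23.3%). The choice of the 630 by their RPMI8226 value favours this. The strong regions of RPMI8226 thus lay near the average region of the table in the other lines. The selection acts on this comparison, since a region low in RPMI8226 needs only 1 other line at or below -0.5.

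The share of strong regions differed little with the distance to a gene, apart from regions over gene starts. Within 1 kb of a gene's start or end, 47 of 319 regions (14.7%) were at or below -1, against 16.4% of all regions. Of regions more than 10 kb from an annotated start, 16.8% of 2796 were. Among the 87 regions that overlapped an annotated start, 7 (8.05%) were at or below -1, with a median of -0.55, and 32.2% were in KMS-12 and 12.6% in KMS-11. These regions were also wide, with a median of 626 bases. Regions inside genes had 17.5% at or below -1 (396 of 2262), regions outside genes 15.3% (229 of 1495) and regions across a gene's end 6.17% (5 of 81). Up to 1 kb from a start without overlapping it, the share was 19% (16 of 84), the highest of the distances to a start.

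Width moved with the RPMI8226 fold. From the narrowest to the widest quintile of regions, the share at or below -1 in RPMI8226 was 18.8, 23.2, 17.1, 14.7 and 8.33%. In KMS-11 it was 25.3, 25, 23.8, 21.6 and 17.7%, and in KMS-12 37.4, 28.2, 31.9, 25.7 and 26.4%. Across regions the Spearman correlation of fold with width was 0.11 in RPMI8226, 0.04 in KMS-11 and 0.14 in KMS-12, as a description of 3838 regions of the same libraries. In the widest quintile, 0 of 44 regions at a start and 46 of 538 (8.55%) more than 10 kb from one were at or below -1. In the other quintiles the numbers were 7 of 43 (16.3%) at a start and 18.7% of 2258 away from one. Outside the widest quintile, regions at starts thus had close to the share of regions elsewhere, and the widest regions away from starts had a low share too.

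Besides the 4 windows shown above, 7 of the 106 regions over promoter windows were at or below -1, 11 (10.4%) in all, and the median of the 106 was -0.56. Over all regions the share was 16.4% and the median -0.61. The 106 were also wide, with a median of 536.5 bases against 393 over all regions, and the part of width in their share was not tested. NR3C1, the glucocorticoid receptor through which dexamethasone acts on myeloma cells, had a region over a promoter window (chr5:143435265-143435574) at -1.42 in RPMI8226, -0.45 in KMS-11 and -0.74 in KMS-12 in the authors' deposited table. LRRTM3, a synaptic adhesion gene, and NEUROG3, a transcription factor of endocrine cells, had windows under regions at -1.26 each. At the weak end were the windows of ACHE, which breaks down acetylcholine, at -0.016, and of PRSS2, a trypsinogen, at -0.019 in RPMI8226. Both had KMS-11 and KMS-12 folds below -0.5, as the selection requires of a region where RPMI8226 is near 0.

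The 6 weakest regions in RPMI8226 had folds in the authors' deposited table that cannot be told from 0 with 1 library a side. They lay inside CLK3, a kinase of splicing factors (chr15:74621112-74621525, -0.00018), far from LOC124904098 (chr17:23016260-23016603, -0.00020), and across a start of RGMA, a guidance molecule and BMP co-receptor (chr15:93087806-93089031, -0.00074). The others were inside HEY2-AS1 (-0.0016), 39.1 kb from LOC105375539 (-0.0018) and inside DEPTOR (-0.0022), which shares its value with a region at HSPB7, so the sixth place is tied. DEPTOR, an inhibitor of mTOR kinase, is highly expressed in myelomas with a MAF translocation, and this region (chr8:119919621-119920453) had -0.97 in KMS-11 and -0.91 in KMS-12. A second region inside DEPTOR (chr8:119951918-119952231) had -0.71 in RPMI8226, -0.63 in KMS-11 and -0.23 in KMS-12, so RPMI8226 was the highest line at 1 region of the gene and the lowest at the other.

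How RPMI8226 behaved where the other lines lost opening can be read in the 2187 regions at or below -0.5 in both KMS-11 and KMS-12. The only limit seen on the RPMI8226 fold there is its sign. The authors' selection rule is not known, so a further filter on RPMI8226 may have acted. This set of 2187 regions was formed after the values were seen. Its median RPMI8226 fold was -0.43 (quartiles -0.73 and -0.21) in the authors' deposited table, against a median of -0.89 for the mean of the KMS lines. Of the 2187, 952 (43.5%) were at or below -0.5 in RPMI8226, 239 (10.9%) at or below -1, and 256 (11.7%) above -0.1. The same view of KMS-11, in 1818 regions low in the other lines, gave a median of -0.56 with 52.4% at or below -0.5 and 17.8% at or below -1. That of KMS-12, in 1737 regions, gave -0.58, with 54.8% and 20.7% at or below these values.

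The size of the KMS folds carried over only slightly to RPMI8226. Over the 2187 regions the RPMI8226 fold had a Spearman correlation of 0.09 and a Pearson correlation of 0.08 with the mean of the KMS folds, as a description over regions of the same libraries. From the quintile with the lowest KMS mean to the quintile with the highest, the RPMI8226 median was -0.47, -0.46, -0.46, -0.42 and -0.37. The share at or below -1 in RPMI8226 was 14.8, 12.6, 10.1, 12.4 and 4.79% in the same order.

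Set against the mean of the other lines, the RPMI8226 fold was higher by a median of 0.11 (quartiles -0.21 and 0.53), with a median of -0.61 in RPMI8226 and of -0.75 for the mean of KMS-11 and KMS-12. When each line was centred on its own median, this difference was -0.025, so its sign rests on the level of the lines. RPMI8226 had the lowest of the 3 folds in 895 regions (23.3%) and the highest in 1647 (42.9%). With each line centred on its own median it was lowest in 1262 regions, so this count also depends on the level of the lines. Without centring, RPMI8226 was at least 0.5 below both other lines in 155 regions (4.04%) and at least 0.5 above both in 608 (15.8%). At a gap of 1 the numbers were 12 and 48.

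The regions where RPMI8226 was furthest below the mean of the other lines repeat the list of its strongest regions in part. HPS3 led with a difference of -1.90, followed by RORA (-1.70), LOC400499 (-1.52), EPM2AIP1 (-1.47) and WWP1 (-1.44). Most KMS folds behind these gaps were values that many regions share. In KMS-11 the value was carried by 15 regions at HPS3, 109 at RORA, 100 at LOC400499, 17 at EPM2AIP1 and 178 at WWP1. In KMS-12 the numbers were 87, 52, 2, 11 and 52 in the same order. The part of this repetition in the gaps was not tested. FAM20B, a kinase of proteoglycan linker synthesis, came next with a difference of -1.41, its region (chr1:179034775-179035017) having -1.74 in RPMI8226, -0.56 in KMS-11 and -0.08 in KMS-12 in the authors' deposited table. LOC105377198 and the noncoding gene C5-OT1 closed the list with differences of -1.37 and -1.35. KMS-12 was the line nearer to 0 at HPS3, RORA, LOC400499, WWP1 and FAM20B, and KMS-11 was the nearer one at EPM2AIP1, LOC105377198 and C5-OT1.

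On the opposite side stood regions that were very low in the KMS lines and near 0 in RPMI8226. At LINC02740 (chr11:42215956-42216229) the deposited fold was -0.03 in RPMI8226, against -3.04 in KMS-11 and -4.17 in KMS-12, a difference of 3.57 from the mean of the other lines. TARDBP, which encodes an RNA-binding protein of splicing control, followed with a difference of 2.47 and LOC107985841 with 2.44. Regions assigned to LOC124904098 (2.28), TERF1, a telomere-binding protein (1.91), LINC02798 (1.90), the olfactory receptor gene OR4C46 (1.76) and LOC124901624 (1.71) completed the 8. Of these 8, 3 lay over 100 kb from their nearest gene, at 1732 kb for LOC124904098, 3039 kb for LINC02798 and 553 kb for OR4C46. The read filters are not given, so how uniquely reads map at these 3 regions is unknown. In each of the 8 the RPMI8226 fold was between -0.26 and -0.02 in the authors' deposited table.

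**Figure D3:**
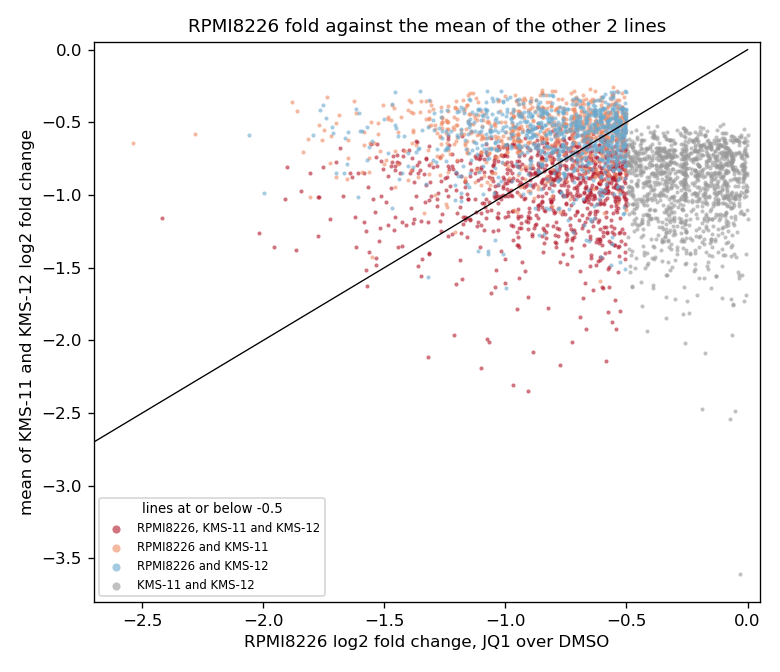
Each point is 1 of the 3838 regions, with its RPMI8226 log2 fold change on the x axis and the mean of its KMS-11 and KMS-12 folds on the y axis, coloured by which lines were at or below -0.5, with a line of equal values. The cloud has no visible slope within a class, HPS3 is the point furthest left at -2.54, and LINC02740 is the lowest point, at -0.03 in RPMI8226.

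By class of sharing, the RPMI8226 median was -0.78 in the 952 regions shared by all 3 lines, -0.78 in the 785 shared with KMS-11 and -0.73 in the 866 shared with KMS-12. In the 1235 regions shared by the KMS lines alone it was -0.25, and there the definition keeps it above -0.5. The share at or below -1 in RPMI8226 was 25.1% (239 regions) in the first class, 27.3% (214) in that with KMS-11 and 20.4% (177) in that with KMS-12. Of the 2603 regions at or below -0.5 in RPMI8226, 630 were at or below -1. Every class that includes RPMI8226 is at or below -0.5 in that line by definition. That cut bounds their medians and shares, so no likeness between classes is read from them.

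The 3838 regions were assigned to 3219 genes, of which 2745 had 1 region, 366 had 2, 77 had 3, 25 had 4 and 6 had 5. At least 1 region at or below -1 in RPMI8226 was found at 608 genes, 2 at 22 of the 474 genes with 2 or more regions, and 3 at none. Of all regions, 16.4% were at or below -1, and whether 22 genes is more than that share alone would give was not tested. NLGN1 came first of the 22 by the rule used, and its 5 regions ran across 818 kb of chromosome 3. Their RPMI8226 folds in the authors' deposited table were -0.64, -0.50, -2.02, -0.02 and -1.47 in the order of position, so a very low region stood beside one near 0. In KMS-11 the same regions had -1.36, -0.20, -1.45, -0.76 and -0.69, and in KMS-12 -0.08, -0.66, -1.07, -0.68 and -0.91.

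XPO6, the exportin of actin, had the lowest median of these genes, -1.56. Its 3 regions on chromosome 16 had -1.56, -1.70 and -0.77 in RPMI8226, -1.25, -1.33 and -0.25 in KMS-11 and -1.53, -0.42 and -1.72 in KMS-12 in the authors' deposited table. RABGAP1L, whose promoter window is shown above, had its other region at -1.16, and the pair spans 21.9 kb. GPRIN3, a partner of G proteins in neurite outgrowth, had -0.80, -1.45 and -1.38 in RPMI8226, against -0.27, -0.67 and -0.79 in KMS-11 and -0.93, -0.77 and -0.49 in KMS-12. All regions of XPO6, RABGAP1L and GPRIN3 were thus at -0.77 or lower in RPMI8226.

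LINC01754, a noncoding gene of chromosome 20, had -1.57 and -1.12 in RPMI8226, with -0.79 and -1.33 in KMS-11 and -2.46 and -0.31 in KMS-12. CPVL, a carboxypeptidase, had -1.27 and -1.37, and SIK3, a salt-inducible kinase, -1.47 and -1.15 in RPMI8226 in the authors' deposited table. SIK3 was weaker in KMS-11, at -0.35 and -0.32. MBP, the myelin basic protein gene, which also has transcripts in immune cells, had -1.37, -0.08, -1.27 and -0.69 across 79.8 kb in RPMI8226. The MBP region at -0.08 in RPMI8226 had -1.10 in KMS-11 and -1.27 in KMS-12. Also among the 22 were PTPRC, the leukocyte tyrosine phosphatase, with -1.16 and -1.01, ENTPD1, an ectonucleotidase, with -1.25 and -1.20, and ROR1, a receptor tyrosine kinase-like protein, with -1.33 and -1.14 for its lowest regions.

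Genes with several regions showed how far regions of 1 gene differed. Of the 31 genes with 4 or 5 regions, a group formed after the values were seen, MBP had the lowest median, -0.98, followed by ROR1 (-0.89), LOC101929485 (-0.86), MECOM, a transcription factor gene (-0.84), ARID1B (-0.83) and MAML3 (-0.81). The highest medians were those of LOC105375341 (-0.12), CRLF2, a cytokine receptor gene (-0.18), LOC124904098 (-0.21) and XYLT1, a xylosyltransferase (-0.25). The 4 regions assigned to LOC124904098 lay 284 to 1732 kb from it. At MECOM the 4 RPMI8226 folds were -1.21, -0.88, -0.80 and -0.25 along the gene, while KMS-11 had -0.24, -0.09, -0.57 and -0.64, lowest where RPMI8226 was highest, and KMS-12 was at -1.27 or lower in all 4. Over all pairs of neighbouring regions within 10 kb of each other, 107 in number, the Spearman correlation of their RPMI8226 folds was 0.03, and the median gap between the folds of a pair was 0.37. For pairs 100 to 1000 kb apart the median gap was 0.34, so regions close to each other were no more alike in RPMI8226 than distant ones.

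Chromosomes differed little. Among the 23 with at least 20 regions, the medians of the RPMI8226 fold spanned 0.14, against 0.20 in KMS-11 and 0.23 in KMS-12. Chromosomes 15 (median -0.66, 114 regions), 1 (-0.65, 406 regions) and 9 (-0.65, 118 regions) were lowest in RPMI8226. Their shares at or below -1 were 20.2, 19.7 and 21.2%, against 16.4% of all regions. The highest medians were those of chromosomes 22 (-0.52, 35 regions), 18 (-0.53, 87 regions) and 14 (-0.55, 94 regions). Few regions reached -1 on chromosomes 19 (4 of 70, 5.71%), 22 (2 of 35, 5.71%) and X (8 of 120, 6.67%). The lowest regions of chromosomes 15, 1 and 9 were those at RORA, LOC105371456 and C5-OT1.

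**Figure D4:**
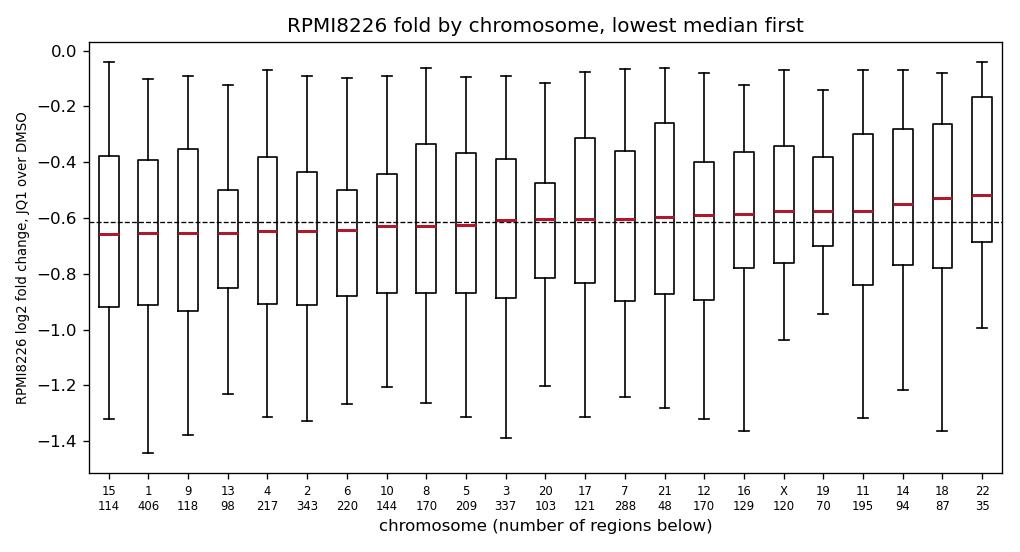
Box plots of the RPMI8226 log2 fold change by chromosome, for chromosomes with at least 20 regions and ordered by median, with quartiles as boxes, the 5th and 95th percentiles as whiskers, the number of regions under each name and a dashed line at the median of all regions. The medians run from -0.66 on chromosome 15 to -0.52 on chromosome 22, within the box of every chromosome.

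In windows of 10 Mb, formed after the values were seen, 109 windows held at least 15 regions and their RPMI8226 medians ran from -0.86 to -0.34. The lowest was on chromosome 2 between 60 and 70 Mb, with 19 regions and 6 at or below -1, against 16.4% of all regions. Chromosome 1 between 190 and 200 Mb (-0.83, 20 regions) followed. The highest was the tip of chromosome X, its first 10 Mb, with 25 regions at a median of -0.34 in RPMI8226, -0.66 in KMS-11 and -1.24 in KMS-12. None of these 25 was at or below -1 in RPMI8226, against 16.4% of all regions. The windows named here are extremes of the 109, picked by their medians. The 19 regions within the first 3 Mb had a median of -0.26, and the other 6 a median of -0.55, against -0.61 over the 95 regions on the rest of the chromosome.

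Genes of cytokine receptors lie within the first 3 Mb of chromosome X. The 4 regions nearest to CRLF2 had -0.05, -0.10, -0.26 and -0.64 in RPMI8226 in the authors' deposited table, against -0.61, -0.56, -0.87 and -0.21 in KMS-11 and -1.89, -1.18, -1.48 and -1.58 in KMS-12. CSF2RA, a subunit of the GM-CSF receptor, had -0.10 and -0.52 in RPMI8226, and IL3RA, a subunit of the interleukin-3 receptor, had the lowest fold of the window, -0.98. IL3RA had -0.63 in KMS-11 and -1.03 in KMS-12, and KMS-12 was close to RPMI8226 there.

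The label of a plasma cell malignancy could be checked only by which marker genes have a region, since folds hold no levels. Of 8 defining plasma cell genes looked up, SLAMF7 and IRF4 had a region in the authors' deposited table, and SDC1, TNFRSF17, CD38, PRDM1, XBP1 and MZB1 had none. No region was assigned to the T and NK cell genes CD3D, CD3E, CD2 and NKG7, to the myeloid genes CD14 and LYZ, or to the stromal and endothelial genes COL1A1, COL1A2 and CDH5. CSF1R, a myeloid receptor, had 1 region at -0.18, and PECAM1, an endothelial and leukocyte adhesion gene, had 1 at -0.42, 20.1 kb away. Of 16 T and NK cell genes in the longer list, NCAM1, which myeloma cells also express, had 2 regions (-1.01 and -0.86) and CD247, a T cell receptor subunit, 1 (-0.73). A gene without a region in a table of shared losses may be open or closed, and its state was not analysed here.

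Of 331 symbols in 17 gene lists, 326 matched the gene table and 59 had a region. In the plasma cell identity list 8 of 23 genes had 11 regions, with a median RPMI8226 fold of -0.72 and 3 at or below -1, against a median of -0.61 and 16.4% over all regions. SLAMF7 was lowest at -1.72. POU2F1, an octamer-binding factor that works with the B cell coactivator POU2AF1, had -1.58, -0.81 and -0.72 in RPMI8226, against -1.60, -0.95 and -0.93 in KMS-11 and -1.43, -0.36 and -0.07 in KMS-12 in the authors' deposited table. POU2AF1 itself had -0.85 in RPMI8226, -0.05 in KMS-11 and -0.94 in KMS-12. EDEM1, which directs misfolded glycoproteins to degradation, had -1.13 and -0.47. IRF4 had -0.51 in RPMI8226, where KMS-11 had -1.28 and KMS-12 -0.36. The list's remaining regions, at CADM1 (-0.63, 13.6 kb away), FCRL5 (-0.55) and CD28 (-0.19, 48.1 kb away), were nearer to 0 than its median.

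Genes of the BET inhibitor response, the MAF program and the drivers of myeloma had few regions, and the lists share those of IRF4 and MAF. Of 22 BET response genes, BCL2, the survival factor (-0.52), and IRF4 (-0.51) had a region, with a median of -0.51 and none at or below -1, against 16.4% of all regions. The 16 genes of the MAF program included NTRK2, a neurotrophin receptor (-0.87), DEPTOR (-0.71 and -0.0022) and MAF itself, whose region (chr16:79593196-79593433) had -0.31 in RPMI8226, against -0.57 in KMS-11 and -0.91 in KMS-12. CCND2 and ITGB7 had none. The median was -0.51, and 0 of 4 regions reached -1, against 16.4% of all regions, a difference that 4 regions cannot show. Among 26 myeloma drivers and translocation partners, CCND3, a D-type cyclin, had -0.86 in RPMI8226, -1.503 in KMS-11 and -0.37 in KMS-12, and PVT1 had -0.47, with a median of -0.49 over 4 regions of 4 genes in the authors' deposited table.

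NF-kB signalling is a common survival pathway of myeloma. Only 3 of its 28 genes had a region, with a median of -1.16 and 2 of 3 at or below -1, against -0.61 and 16.4% over all regions. They were TNFAIP8, a TNF-induced regulator of cell death (-1.26), MAP3K14, the kinase of the noncanonical branch (-1.16), and TNFAIP3, the deubiquitinase that restrains the pathway (-0.54, 21.2 kb away). MAP3K14 (chr17:45307513-45307850) had -0.79 in KMS-11 and -1.53 in KMS-12 in the authors' deposited table. TNFAIP8 had -0.71 in KMS-11 and -0.31 in KMS-12, and so was lowest in RPMI8226.

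The B cell program, much of which plasma cells silence, had 8 regions at 5 of 22 genes with a median of -0.61, equal to that of all regions, and 0 at or below -1, against 16.4% of all regions. CIITA, the master regulator of MHC class II, had -0.84, EBF1, a B lineage factor, -0.71, and CXCR5, a follicle-homing receptor, -0.76, -0.66, -0.41 and -0.27 at 4 regions. The remaining members, BLK and BTK, had -0.56 and -0.07. Of 26 ETS factors, 4 had a region at a median of -0.41, led by ETV1 (-0.99) and followed by ELF1 (-0.496), ETS2 (-0.32) and EHF (-0.14). Only the ETV1 region, 1 of 4, was at or below -0.5 in RPMI8226, against 67.8% of all regions, and its KMS-11 fold in the authors' deposited table was -0.01. Of 26 cell cycle genes, CCND3 (-0.86) and CDKN1A, the inhibitor induced by p53 (-0.67), had a region.

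Secretory load makes myeloma cells depend on the unfolded protein response. Its list of 27 genes, with degradation at the endoplasmic reticulum, had 7 regions at 6 genes. Their median was -0.63, near the -0.61 of all regions. Of the 7, 2 were at or below -1, against 16.4% of all regions. Besides EDEM1, CREB3L2, a membrane-bound factor of secretory cells, had -1.07, SEL1L, the adaptor of the degradation complex, -0.94, and EDEM3 -0.63. CREB3L2, SEL1L and EDEM3 were lower in RPMI8226 than in either other line, and the other 4 regions were not. Of all regions, 23.3% were lowest in RPMI8226. TRIB3, an inhibitory pseudokinase of the response, had -0.30 in RPMI8226, against -1.17 in KMS-11 and -1.13 in KMS-12. Apoptosis genes had 3 regions at 3 of 22 genes. PMAIP1, a BH3-only killer protein, had the second lowest fold of all listed genes, -1.62, in a region 23.5 kb from the gene (chr18:59875903-59876526), against -0.69 in KMS-11 and -0.02 in KMS-12 in the authors' deposited table. BCL2, named above, had -0.52.

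The Notch pathway had 9 regions at 5 of 16 genes, with a median of -0.63 and 1 at or below -1, against -0.61 and 16.4% over all regions. Its nuclear coactivator MAML3 had 4 regions at -1.21, -0.99, -0.63 and -0.61, the ligand JAG1 had -0.98, the receptor NOTCH1 -0.70 and the target HES1 -0.20. HES1 had -1.92 in KMS-12 in the authors' deposited table, so the target was the weakest member in RPMI8226 and a strong one in KMS-12. That KMS-12 value was carried by 18 regions. Calcium signalling had 14 regions at 8 of 29 genes with a median of -0.53 and 1 at or below -1, against the same background. NFATC2, a calcium-dependent transcription factor, had -1.18 and -0.49, and the calcium release channels ITPR2 and ITPR1 had -0.99 for ITPR2 and -0.81 to -0.19 over the 5 regions of ITPR1. NFATC1 was near 0, at -0.06.

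Histone and chromatin regulators had 14 regions at 8 of 31 genes, and their median of -0.83 was the lowest of the lists with more than 3 regions. Of the 14, 13 were at or below -0.5, against 67.8% of all regions, but only 1 was at or below -1, against 16.4% of all regions. CHD2, a chromatin remodeller, had -1.49, -0.86 and -0.52, ARID1B, a subunit of the BAF complex, had -0.97 to -0.26 over 4 regions, ARID2 of the PBAF complex had -0.84, and the deacetylase HDAC9 had -0.97 and -0.95. EZH2, the methyltransferase of Polycomb, had -0.52 in RPMI8226, -0.28 in KMS-11 and -1.23 in KMS-12. The median of the 14 was -0.81 in KMS-11 and -0.33 in KMS-12 in the authors' deposited table. The lists share regions, hold 0 to 14 regions each and were chosen with earlier results known, so nothing particular to a list is read from these counts.

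**Figure D5:**
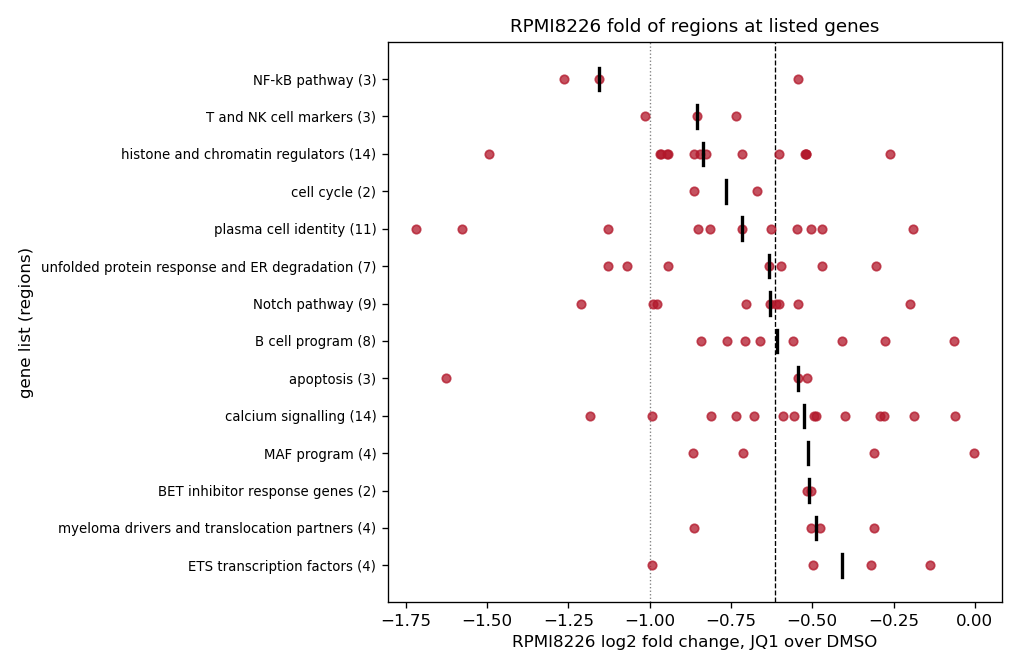
RPMI8226 log2 fold change of every region assigned to a gene of 14 lists with at least 2 regions, 1 point per region and 1 row per list, with a short bar at the list's median, a dashed line at the median of all regions (-0.61) and a dotted line at -1. Most lists spread across the dashed line, and SLAMF7, PMAIP1, POU2F1 and CHD2 are the points furthest left.

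The genes in the title of the series had no region of their own. FLI1, an ETS factor, had its nearest region 645 kb away at -0.33 in RPMI8226, and the region nearest to SMILO, a long noncoding RNA annotated as LINC00582, was 130 kb away at EGLN1, with -0.91 in RPMI8226, -0.44 in KMS-11 and -1.28 in KMS-12 in the authors' deposited table. MYC, the BET target named above, had its nearest region 58.4 kb away inside PVT1, and RPMI8226, at -0.47, was the line nearest to 0 there.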

How the data were processed

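ATAC-seq libraries of RPMI8226, KMS-11 and KMS-12 were grouped by line and treatment from the labels, with 1 library a side. Duplicates and RNA-seq, which the series' design text mentions, were not analysed here. Each region of the table deposited by the authors has a fold for each line, on a log2 scale by assumption, as is the direction, JQ1 over DMSO. Another deposited column counts the lines that share the region (2 or 3), described by the authors as lines in common. DESeq2, MACS2, hg38 and GRCh38.p13 are named per the submitters' processing notes, without versions or roles. Not given in the sources used here are the aligner, read filters, transposase shift, peak settings and library scaling. The table holds no counts, so depth is unknown and no interval or test could be had. Of its columns of per-sample values, 0 were left unused.

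Medians, quartiles, counts and correlations were computed with Python 3.11.15, pandas 2.3.3, numpy 2.4.6 and scipy 1.17.1, and drawn with matplotlib 3.10.9. Gene assignment and motif search were checked on made-up genes and short sequences with known answers. Regions went to the containing gene, protein-coding first, or the nearest, among 20052 protein-coding and 18330 lncRNA genes of RefSeq GRCh38.p14, giving 2495 protein-coding and 1343 lncRNA assignments. That table served for names, neighbours and distances; the authors' notes name GRCh38.p13. Start sites came from RefSeq promoter windows, which were not available for 170 regions on chromosome 8. Named by rule were the 20 lowest regions, the 6 nearest to 0, the 8 furthest below and 8 furthest above the other lines (1 per gene), the 8 genes with most regions at or below -1, the 3 chromosomes at each end, up to 4 members per list and 4 promoters. Further members of a list or gene, and further genes and promoters, were chosen after their values were seen. The members, lists and rules were chosen with earlier results of these data known. Alternatives were centring of lines, thresholds, repeated values, shared regions and gene assignment. Part of the apoptosis list is not reported here.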

Additional observations from a re-analysis of the deposited data

How the results depend on the processing

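With 1 library a side and no counts, depth limits every value by an unknown amount. The median fold of RPMI8226, -0.61, was -0.78 in regions shared by 3 lines and -0.43 in regions at or below -0.5 in both KMS lines, a choice made after seeing the data. Of all regions, 630 were at or below -1, 98 at or below -1.5 and 1359 at or below -0.75. RPMI8226 was lowest in 895 regions, and in 247 of the 1206 regions (20.5%) without a value repeated in 10 or more regions. The median difference from the other lines, 0.11, was -0.025 when lines were centred. The 47 strong regions within 1 kb of a gene end became 166 within 5 kb and 24 with protein-coding genes alone. Fewer regions, another threshold or a wider window make these counts differ by construction. Regions shared by 3 lines are all at or below -0.5 in RPMI8226, which lowers their median by construction. The cause of the other changes was not tested. Other alternatives gave 846 regions at or below -1 with lines centred (a shift of -0.09 in RPMI8226) and 620 without repeated values, 1262 lowest regions with lines centred, and 33 genes with protein-coding genes alone or 15 with regions inside genes, against 22. The chromosome spread of 0.14 was 0.13 with at least 50 regions, 0.21 in regions shared by 3 lines and 0.18 for means, and the median was -0.63 without repeated values. No paired analysis was possible because the comparison within RPMI8226 has 1 JQ1 and 1 DMSO library.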
